A study of Homo sapiens with 18 samples.

Results

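The data described here are the messenger RNA levels of 50 hypoxia-inducible and glycolysis genes, of 26668 gene symbols listed, in 3 human pancreatic cancer cell lines in which OFD1 was knocked down. The genes are known targets of the hypoxia-inducible factors (HIF) and enzymes of glycolysis. They were chosen by their function and by the measured change in PATU8988T, where several of them were among the genes with the largest falls, so their values in PATU8988T are given as a description with no test. That rule uses no value of PANC1 or MIA PaCa-2, where the genes were tested. The genes and the tests were still chosen with earlier results of these data known.

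Each line had 3 control and 3 OFD1 knockdown libraries of total RNA, 18 in all. PANC1 (PANC-1 in the sample labels) and MIA PaCa-2 are lines from pancreatic carcinoma, and PATU8988T (PaTu 8988T in the labels) is a line from pancreatic adenocarcinoma. The knockdown libraries are shOFD1 cells in which doxycycline had switched on a short hairpin RNA against OFD1 for 72 h. The control libraries are titled shControl, with the genotype WT and no treatment, while the series text speaks of wild-type lines and of 0 and 3 days of induction. The study's methods instead describe the controls as the tet-on shOFD1 cells given DMSO in place of doxycycline. The labels and the methods differ on this point. Any effect of doxycycline itself, and of time in culture if the controls were taken at day 0, cannot be told apart from that of the knockdown. The source labels of replicates 2 and 3 of both PATU8988T groups name other line numbers than their titles. All 6 of these libraries correlated with each other at r of at least 0.988 and with libraries of the other lines at no more than 0.862, over 9083 genes.

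When oxygen is low, prolyl hydroxylases of the EGLN family stop marking the HIF alpha subunits for destruction by the VHL ubiquitin ligase, and HIF with its partner ARNT switches on a large set of genes. The products bring in glucose and run glycolysis, export lactate and acid, remove mitochondria, call for new vessels, modify collagen and, in several cases, restrain HIF itself. Pancreatic carcinoma is a tissue in which this set is often active. OFD1 is a protein of the centriole and the base of the primary cilium. HIF binds a short DNA core, written here as ACGTG or GCGTG, near the genes it acts on.

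The windows from 250 bases before to 50 bases after the start of transcription (RefSeq, GRCh38.p14) were searched for ACGTG and GCGTG on both strands, where the palindrome CACGTG counts as a match on each strand. A window was matched for 44 of the 50 genes, the exceptions being VEGFA, SLCO4A1, BNIP3L, NDRG1, HILPDA and LOXL2. ACGTG was found in 23 of the 44 windows, that is 52.3%, against 21.6% of 27305 windows of all genes and 26.9% of 10088 windows of the other genes tested. GCGTG was found in 22 of 44 windows, against 36.3% of all and 51.6% of the other tested genes. The 250 bases before the start are printed for 4 genes that the results turn on. ALDOC and ANGPTL4 are shown because they passed the threshold in opposite directions in PANC1 and MIA PaCa-2, and ANKRD37 and DEPP1 because they had the largest changes in PATU8988T. Capitals mark the matches.

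ALDOC (chr17:28576896-28577145, minus strand): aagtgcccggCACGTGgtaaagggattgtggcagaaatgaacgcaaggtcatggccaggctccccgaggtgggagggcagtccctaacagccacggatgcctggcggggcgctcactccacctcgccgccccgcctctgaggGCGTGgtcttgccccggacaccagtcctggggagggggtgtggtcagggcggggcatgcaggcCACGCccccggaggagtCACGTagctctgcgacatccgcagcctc
ANGPTL4 (chr19:8363905-8364154, plus strand): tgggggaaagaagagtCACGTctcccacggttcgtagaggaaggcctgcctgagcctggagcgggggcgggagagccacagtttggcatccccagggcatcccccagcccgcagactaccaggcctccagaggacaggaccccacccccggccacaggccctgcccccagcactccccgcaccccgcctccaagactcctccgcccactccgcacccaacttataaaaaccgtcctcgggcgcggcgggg
ANKRD37 (chr4:185396591-185396840, plus strand): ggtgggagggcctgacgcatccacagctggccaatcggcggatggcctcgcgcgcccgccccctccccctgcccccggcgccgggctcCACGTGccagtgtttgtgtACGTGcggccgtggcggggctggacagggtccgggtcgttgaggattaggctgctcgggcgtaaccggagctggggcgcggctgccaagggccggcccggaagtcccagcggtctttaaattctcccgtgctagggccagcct
DEPP1 (chr10:44978810-44979059, minus strand): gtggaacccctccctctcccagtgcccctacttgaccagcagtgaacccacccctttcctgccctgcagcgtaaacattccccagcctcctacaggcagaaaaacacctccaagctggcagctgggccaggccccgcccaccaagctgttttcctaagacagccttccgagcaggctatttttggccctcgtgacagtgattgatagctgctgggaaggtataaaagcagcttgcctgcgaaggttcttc

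The ALDOC stretch holds 5 matches, of which 2 are the strands of a single CACGTG that starts 240 bases before the start of transcription. The ANKRD37 stretch holds 3, again with a CACGTG, and the ANGPTL4 stretch holds 1. These letters are not in the DEPP1 stretch.

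Values are FPKM, the fragments counted on a gene per kilobase of its length and scaled to the total counted in the library, as deposited. Tests were made with limma on log2(FPKM + 0.1), within each line, on genes with a mean of at least 1 FPKM, and a fold change is on that scale. A gene passed the threshold at an adjusted p below 0.05 with a fold change above 2 or below 0.5. The recovered number of reads was between 32246761 and 39522270 per library. Gene lengths behind the PANC1 values differ from those of the other lines, so levels are not compared between PANC1 and the others. Values of 3 libraries are given in the order of replicates 1, 2 and 3.

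OFD1 itself was checked first. In PANC1 it was at 5.501, 5.12 and 5.67 FPKM in the controls and 2.796, 2.27 and 2.58 in the knockdown, with a log2 fold change of -1.07 ± 0.090 (SE) and a limma adjusted p = 2.70e-06. In PATU8988T it was at 2.14, 1.93 and 2.12 FPKM in the controls and 0.986, 0.894 and 0.854 in the knockdown, with a log2 fold change of -1.10 ± 0.10 (SE) and a limma adjusted p = 5.47e-05. All 3 knockdown values were under 1 FPKM there, so OFD1 passed the minimum through its controls alone. In MIA PaCa-2 it was at 3.09, 2.27 and 3.2 FPKM in the controls and 1.76, 1.74 and 1.97 in the knockdown, with a log2 fold change of -0.61 ± 0.16 (SE) and a limma adjusted p = 0.0232, so the fall there was less than 2-fold. The controls and knockdown libraries did not overlap in any of the lines. Of 8 epithelial markers, 8 averaged 1 FPKM or more in PANC1, 4 did in MIA PaCa-2 (KRT8, KRT18, KRT19 and CLDN4) and 3 in PATU8988T (EPCAM, KRT8 and KRT18), while 0 of 4 endothelial and 0 of 5 acinar and endocrine markers reached it in any line. Of 7 fibroblast markers, COL1A1 and COL3A1 reached it in PANC1, COL1A2 and COL3A1 in MIA PaCa-2 and COL3A1 in PATU8988T. Of 6 leukocyte markers, CD68 did in every line, with PTPRC beside it in MIA PaCa-2. MIA PaCa-2 control replicate 2 stood apart, with a correlation as low as 0.967 with another control against at least 0.995 between replicates of every other group.

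The direction of the gene set differed between the lines. The median log2 fold change of the genes with a value was -0.34 for PANC1, 0.63 for MIA PaCa-2 and -0.51 for PATU8988T, while the median of all genes tested was 0.06, -0.03 and 0.03. In PANC1, 35 of 46 genes were below 0 and 11 above. In MIA PaCa-2, 3 of 42 were below 0 and 39 above, and in PATU8988T 43 of 45 were below 0 and 2 above. Of the 6 leukocyte markers, only CD68 averaged 1 FPKM or more in PANC1 and PATU8988T, and only CD68 and PTPRC in MIA PaCa-2. The summed FPKM of all 6 moved in the same direction as the gene set in each line. It was 33.5 to 38.7 in the controls and 17.4 to 20.5 in the knockdown in PANC1, 49.5 to 67.5 and 73.2 to 77.1 in MIA PaCa-2, and 13.6 to 13.97 and 9.86 to 11.8 in PATU8988T. The sum of the 7 fibroblast markers was 35.3 to 37.3 in the controls and 40.3 to 40.7 in the knockdown in PANC1, 158 to 188 and 234 to 236 in MIA PaCa-2, and 2.97 to 3.32 and 3.08 to 3.79 in PATU8988T. The sum of the 8 epithelial markers was lower in the knockdown in every line. It was 1035 to 1060 in the controls and 991 to 1010 in the knockdown in PANC1. In MIA PaCa-2 it was 1620.5 to 2206 and 1377 to 1408, and in PATU8988T 1046 to 1069 and 838 to 910. The part of the marker genes in the result was not tested. The set had members under the 1 FPKM minimum in each line, namely EGLN3, CA9, CA12 and VLDLR in PANC1, EGLN3, ANGPTL4, STC2, CA9 and CA12 in PATU8988T, and EGLN3, STC2, CA9, CA12, BNIP3, VLDLR, PLOD2 and LOX in MIA PaCa-2. None of the 50 genes passed the minimum through 1 group alone. The sample titles name only a cell line for each library and no other cell type. In bulk RNA, a change in the share of cells that express a gene and a change per cell cannot be told apart.

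**Figure D1:**
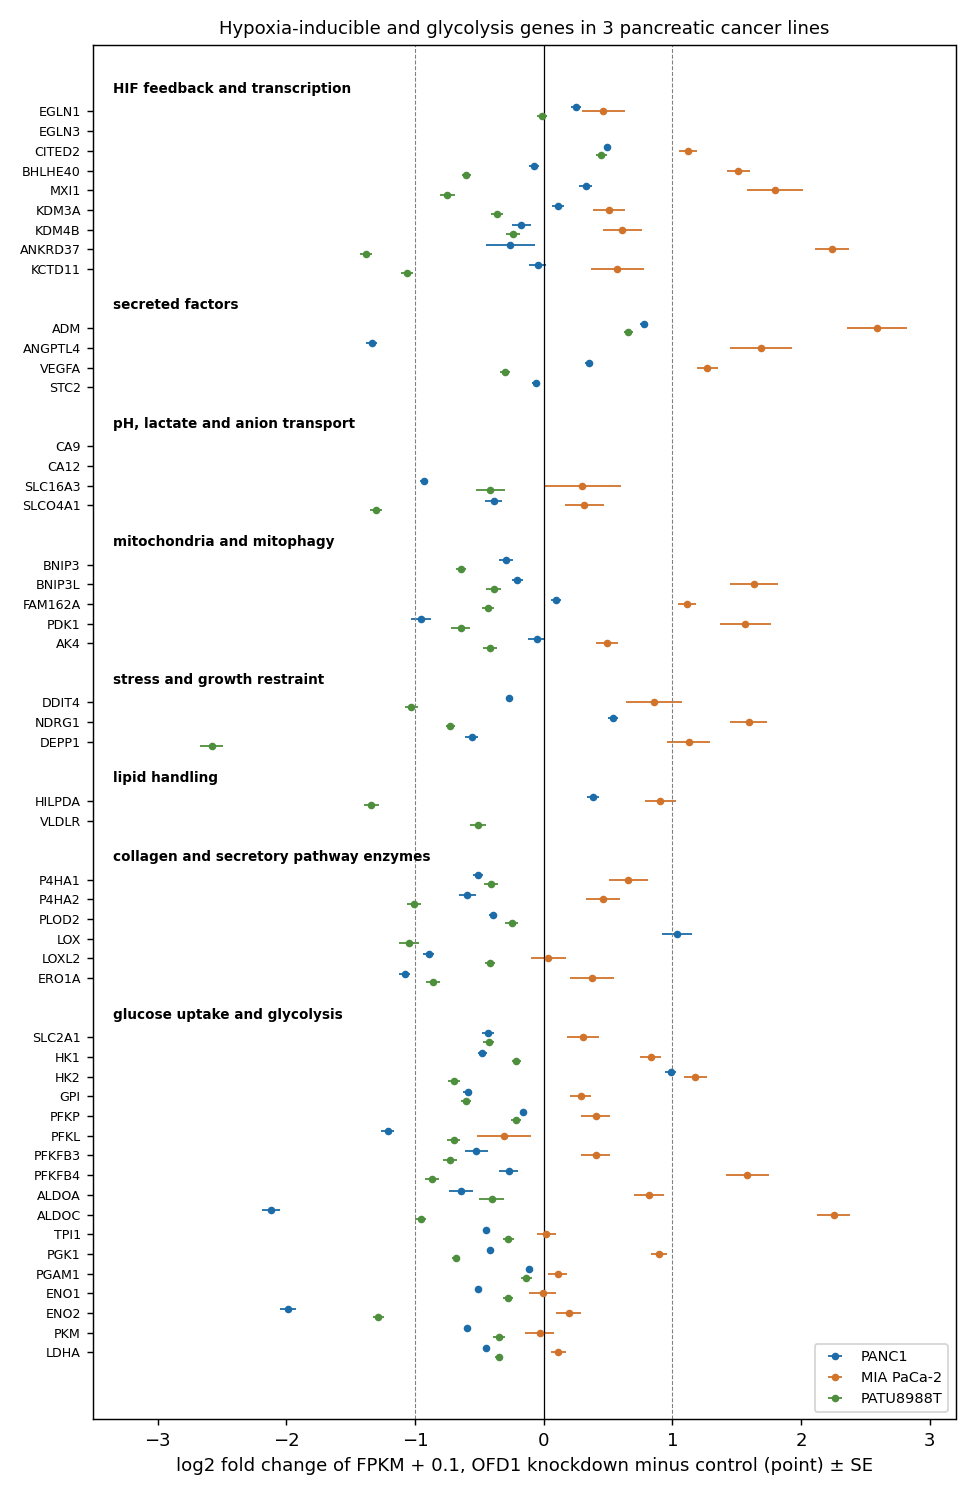
Log2 fold change (knockdown minus control, of FPKM + 0.1) of each of the 50 genes in PANC1 (blue), MIA PaCa-2 (orange) and PATU8988T (green), grouped by role. Points are limma estimates from 3 against 3 libraries with their SE, dashed lines mark 2-fold, and a gene under 1 FPKM on average has no point. Most orange points lie right of 0 and most green points left of it.

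In PANC1, 5 of 46 genes passed the threshold as lower, which is 10.9%, where 4.84% of all 10902 genes tested did. 1 gene (LOX) passed as higher, where 1.75% of all genes did. At an adjusted p below 0.05 with no limit on the fold change, 30 of the 46 were lower (65.2%, against 32.2% of all genes) and 9 were higher (19.6%, against 40.1%). In MIA PaCa-2, 15 of 42 passed the threshold as higher (35.7%, against 4.07% of 10758 genes) and 0 as lower (against 3.68%). There, 28 were higher at an adjusted p below 0.05 alone (66.7%, against 18.7%) and 0 lower (against 21.7%). The count at an adjusted p alone depended on single libraries: it was 41 of 42 without control replicate 2, and between 20 and 22 with any other library left out. The share of all genes called in those refits is not given, so these counts are not read as a result about the set. Control replicate 2 lay above both other controls for 29 of the 42 genes and below both for 10.

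In PATU8988T, 9 of 45 genes had a fold change below 0.5 and 0 above 2, where 0.841% and 0.168% of all 10698 genes were. The 3 knockdown libraries lay below all 3 controls for 42 of the 45 and above them for 2 (ADM and CITED2), where 24% and 27.9% of all genes did so. These counts follow from how the genes were chosen and are not read further. Just inside the 2-fold limit were P4HA2 (-1.01 ± 0.054), DDIT4 (-1.03 ± 0.050) and LOX (-1.05 ± 0.078), and just outside it ALDOC (-0.96 ± 0.041), PFKFB4 (-0.87 ± 0.056) and ERO1A (-0.86 ± 0.054), each a log2 fold change with its SE.

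**Figure D2:**
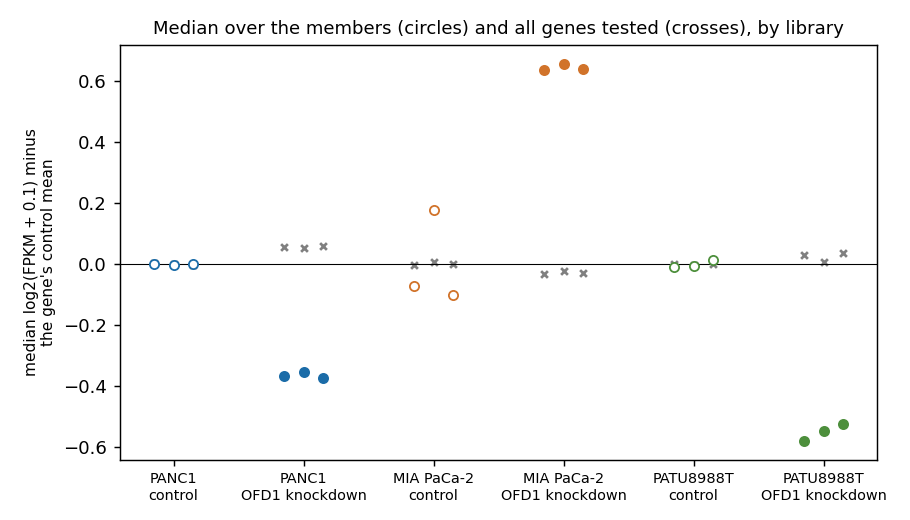
Median over the genes of log2(FPKM + 0.1) minus the gene's mean in the controls of its line, for each of the 18 libraries (circles, open for control and filled for knockdown), with the same median over all genes tested (crosses). Each knockdown library lay on the side of its line's median change, and MIA PaCa-2 control replicate 2 was at 0.18, above the other controls of that line.

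The difference between PANC1 and MIA PaCa-2 was tested by itself. Gene lengths were the same in these lines for 30 of 47 genes listed above 0 in both, and ALDOC was not among the 30. The part of differing gene lengths in the differences was not tested. Of 42 genes tested in both lines, 40 (95.2%) had a change in PANC1 below that in MIA PaCa-2 at an adjusted p below 0.05 (limma interaction), where 14.5% of 9553 genes did, and 0 had one above it, where 20.9% did. The 2 exceptions were HK2 and EGLN1, and HK2 was called as well without control replicate 2 of MIA PaCa-2. There were 16 genes lower in PANC1 and higher in MIA PaCa-2, each at an adjusted p below 0.05, against 246 of all 9553 genes (2.58%). They were ALDOA, ALDOC, ANGPTL4, BNIP3L, DDIT4, DEPP1, GPI, HK1, KDM4B, P4HA1, P4HA2, PDK1, PFKFB3, PFKFB4, PFKP and PGK1. Of the 41 genes with a value in all 3 lines, 28 had a log2 fold change below, above and below 0 in PANC1, MIA PaCa-2 and PATU8988T, 8 were above 0 in the first 2 and below 0 in PATU8988T, 3 (ENO1, PFKL and PKM) were below 0 in all, and 2 (ADM and CITED2) were above 0 in all. The choice of the genes used their fall in PATU8988T, and the share of all genes with each pattern is not given. These pattern counts are therefore a description and are not read further. Without control replicate 2, ENO1 (0.12 ± 0.016, limma adjusted p = 2.09e-04) and PKM (0.11 ± 0.014, adjusted p = 1.78e-04) were above 0 in MIA PaCa-2.

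**Figure D3:**
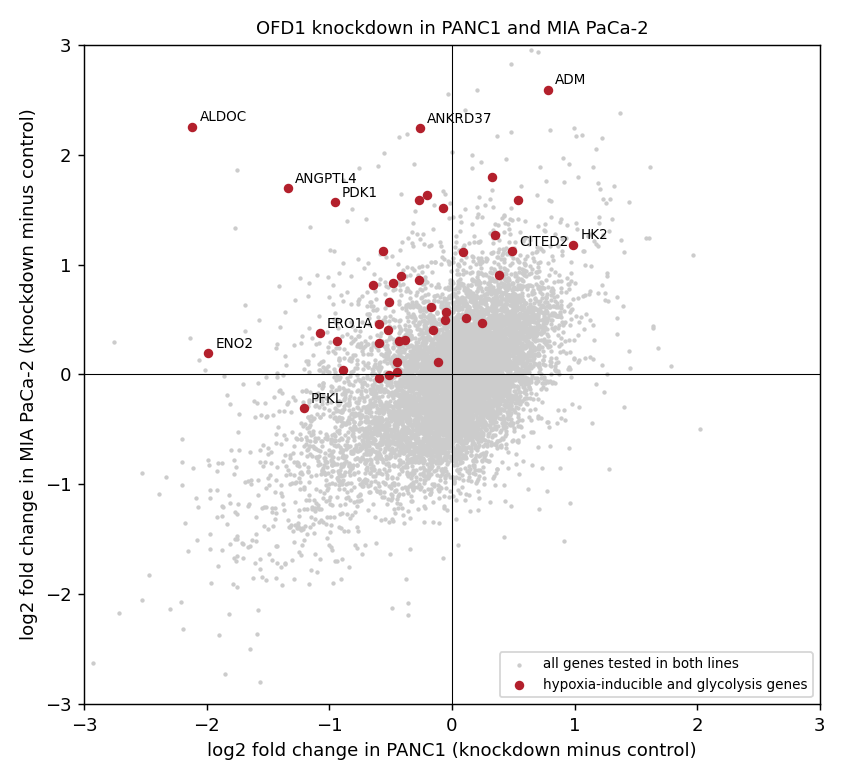
Log2 fold change (knockdown minus control) in MIA PaCa-2 (vertical axis) against that in PANC1 (horizontal axis) for 9553 genes tested in both lines (grey) and 42 hypoxia-inducible and glycolysis genes (red), with 5 genes outside the axes. The red points lie mostly above 0 on the vertical axis, with ALDOC, ANGPTL4 and PDK1 far into the upper left and HK2 and ADM to the right.

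ALDOC had the widest difference between PANC1 and MIA PaCa-2. It encodes aldolase C, which splits fructose bisphosphate, and it lies on chromosome 17. The PANC1 libraries had 11.7, 12.96 and 11.3 FPKM in the controls and 2.62, 2.65 and 2.76 in the knockdown, with a log2 fold change of -2.12 ± 0.069 (SE) and a limma adjusted p = 3.15e-09. The MIA PaCa-2 libraries had 7.07, 8.78 and 6.35 FPKM in the controls and 35.5, 36.5 and 34.2 in the knockdown, with a log2 fold change of 2.25 ± 0.13 (SE) and a limma adjusted p = 1.68e-04. No library of one group overlapped with the other in either line, and the fall in PANC1 was 4.34-fold against a rise of 4.77-fold in MIA PaCa-2. The change in PANC1 minus that in MIA PaCa-2 was -4.37 ± 0.15 (limma interaction, adjusted p = 9.37e-09). In PATU8988T ALDOC was at 472, 467 and 476 FPKM in the controls and 229, 253 and 247 in the knockdown, far above the levels in MIA PaCa-2.

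ANGPTL4, a secreted inhibitor of lipoprotein lipase, was the other gene to pass the threshold in both lines in opposite directions. In PANC1 it was at 37.6, 38.9 and 39.8 FPKM in the controls and 15.7, 14.5 and 15.6 in the knockdown, with a log2 fold change of -1.34 ± 0.043 (SE) and a limma adjusted p = 2.84e-09. Its level in MIA PaCa-2 was 5.14, 9.22 and 4.77 FPKM in the controls and 19.9, 19.5 and 20.3 in the knockdown, with a log2 fold change of 1.69 ± 0.24 (SE) and a limma adjusted p = 0.00247. Control replicate 2 of MIA PaCa-2 was well above the other controls, and all 3 knockdown libraries were above it. The difference between the lines was -3.03 ± 0.26 (limma interaction, adjusted p = 1.31e-05). In PATU8988T the gene was below 0.2 FPKM in every library.

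**Figure D4:**
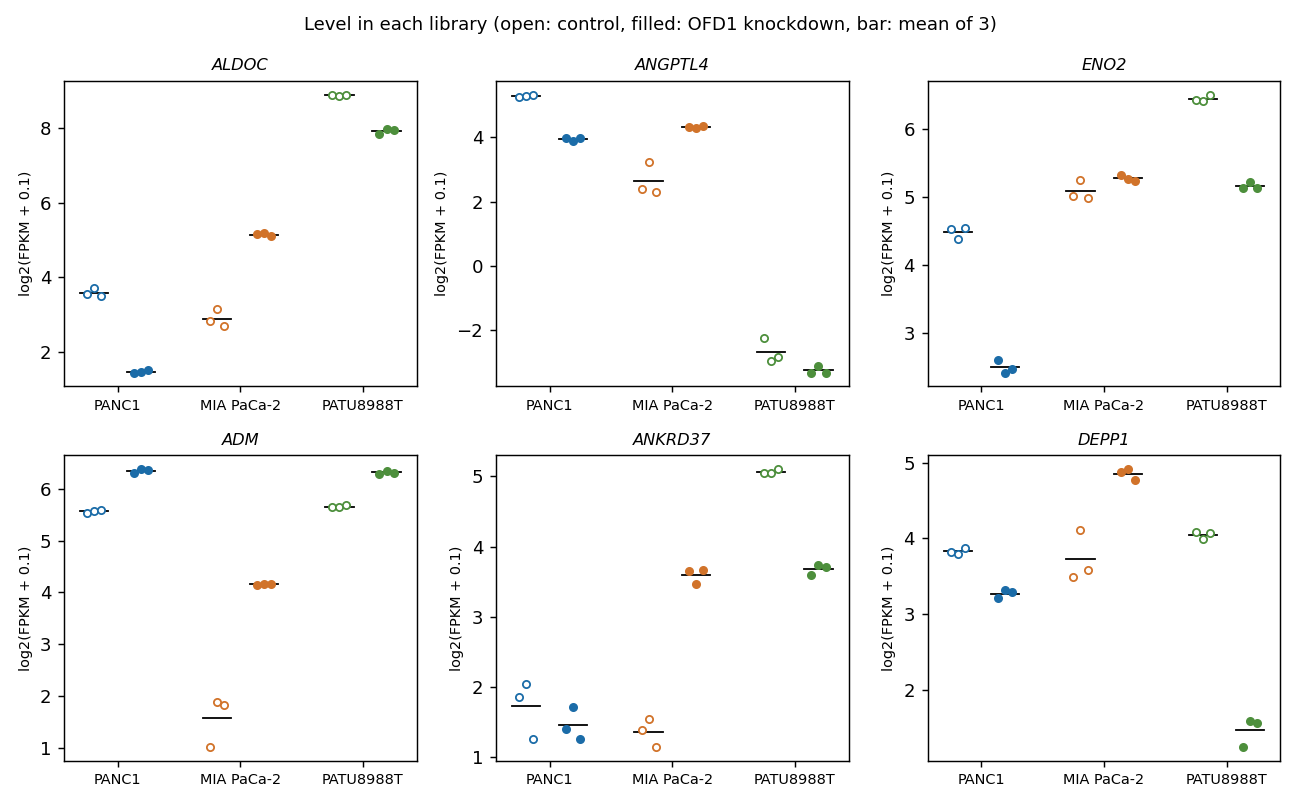
Level of 6 genes in each of the 18 libraries on the log2(FPKM + 0.1) scale (open circles control, filled circles knockdown, bars the mean of 3), with a vertical axis of its own for each gene. ALDOC and ANGPTL4 fell in PANC1 and rose in MIA PaCa-2, ADM was above its controls in all lines, and DEPP1 in PATU8988T went from about 16 to under 3 FPKM. Levels of PANC1 are not on the same gene lengths as those of the other lines.

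A group of 9 genes holds those that feed back on HIF or act in transcription, with ANKRD37 and KCTD11 placed beside them. Of these, 8 were tested in each line. In PANC1 0 passed the threshold, with 1 lower and 3 higher at an adjusted p alone, where 32.2% and 40.1% of all genes were. In MIA PaCa-2 4 passed it as higher, against 4.07% of all genes, and 6 at an adjusted p alone, against 18.7%. ANKRD37, a small ankyrin repeat protein, was at 2.51, 2.81 and 2.11 FPKM in the controls and 12.5, 10.97 and 12.6 in the knockdown in MIA PaCa-2, with a log2 fold change of 2.24 ± 0.13 (SE) and a limma adjusted p = 1.72e-04. Its knockdown libraries there were all far above the controls. The PANC1 libraries had 3.54, 4.04 and 2.299 FPKM in the controls and 2.55, 3.202 and 2.305 in the knockdown, with overlapping groups and a log2 fold change of -0.26 ± 0.19 (SE) and a limma adjusted p = 0.241. PATU8988T had 32.98, 32.9 and 34.2 FPKM in the controls and 11.98, 13.2 and 12.99 in the knockdown, with a log2 fold change of -1.38 ± 0.048. In the GENCODE v29 annotation, 35.2% of its exonic bases overlap with UFSP2 on the opposite strand, and UFSP2 had log2 fold changes of 0.14, 0.34 and -0.17 in PANC1, MIA PaCa-2 and PATU8988T. Whether counting used strand is not given in the sources used here, so reads of such pairs cannot be told apart.

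MXI1, an antagonist of MYC, was at 3.22, 2.24 and 4.21 FPKM in the controls and 11.7, 10.7 and 10.9 in the knockdown in MIA PaCa-2, with a log2 fold change of 1.80 ± 0.22 (SE) and a limma adjusted p = 0.00134. BHLHE40, a transcriptional repressor of the clock, was at 7.29, 6.99 and 8.09 FPKM in the controls and 21.4, 21.3 and 21.6 in the knockdown there, with a log2 fold change of 1.51 ± 0.089 (SE) and a limma adjusted p = 1.72e-04. CITED2, which competes with HIF for the coactivators CREBBP and EP300, was at 29.4, 32.0 and 30.2 FPKM in the controls and 64.6, 67.4 and 67.2 in the knockdown, with a log2 fold change of 1.12 ± 0.069 (SE) and a limma adjusted p = 1.81e-04. All 3 were above every control of MIA PaCa-2. In PANC1, MXI1 (0.33 ± 0.050, adjusted p = 1.91e-04 by limma) and CITED2 (0.49 ± 0.029, adjusted p = 1.63e-07) were also higher at less than 2-fold, and BHLHE40 was not called (-0.076 ± 0.035, adjusted p = 0.0789). In PATU8988T the log2 fold changes were -0.75 ± 0.058 for MXI1, -0.60 ± 0.034 for BHLHE40 and 0.45 ± 0.042 for CITED2.

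The other genes of this role changed less in the tested lines. EGLN1, the main oxygen sensor among the prolyl hydroxylases, had 0.25 ± 0.041 in PANC1 (limma adjusted p = 3.08e-04) and 0.46 ± 0.17 in MIA PaCa-2 (adjusted p = 0.0684), and is one of the genes whose change was not shown to differ between these lines. The histone demethylase genes KDM3A and KDM4B had 0.51 ± 0.12 and 0.61 ± 0.15 in MIA PaCa-2 (limma adjusted p = 0.0182 and 0.0187). KCTD11, an adaptor of a ubiquitin ligase, was not called in PANC1 or MIA PaCa-2, and in PATU8988T it was at 40.7, 40.7 and 43.9 FPKM in the controls and 19.5, 20.4 and 19.9 in the knockdown, with a log2 fold change of -1.06 ± 0.044. EGLN3 was below 1 FPKM in all 18 libraries.

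Secreted factors did not move as a block. ADM encodes adrenomedullin, a peptide that widens vessels. In MIA PaCa-2 it was at 1.92, 3.59 and 3.43 FPKM in the controls and 17.6, 17.9 and 17.9 in the knockdown, with a log2 fold change of 2.59 ± 0.23 (SE) and a limma adjusted p = 4.96e-04, a 6.02-fold rise and the largest among the 42 genes tested in that line. In PANC1 it was at 46.2, 47.2 and 48.3 FPKM in the controls and 79.04, 82.99 and 81.8 in the knockdown, with a log2 fold change of 0.78 ± 0.030 (SE) and a limma adjusted p = 9.44e-09, below 2-fold. The PATU8988T libraries had 50.1, 50.03 and 51.1 FPKM in the controls and 78.2, 81.1 and 79.4 in the knockdown, a log2 fold change of 0.66 ± 0.034. Each knockdown library was above each control of its line, so ADM went up in lines where most other genes of the set went down. The rise was larger in MIA PaCa-2 than in PANC1, with a difference of -1.81 ± 0.25 (limma interaction, adjusted p = 2.53e-04).

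VEGFA, the main growth factor of vessel endothelium, was at 6.35, 5.92 and 5.86 FPKM in the controls and 14.97, 14.7 and 14.6 in the knockdown in MIA PaCa-2, with a log2 fold change of 1.27 ± 0.083 (SE) and a limma adjusted p = 1.92e-04. The PANC1 libraries had 52.7, 49.4 and 49.4 FPKM in the controls and 63.9, 65.98 and 63.6 in the knockdown, with a log2 fold change of 0.35 ± 0.034 (SE) and a limma adjusted p = 6.92e-06. These groups did not overlap in either line, and the PANC1 change was under 2-fold. In PATU8988T it was at 19.8, 19.8 and 19.9 FPKM in the controls and 16.1, 16.3 and 15.9 in the knockdown, a log2 fold change of -0.30 ± 0.039. STC2, a secreted glycoprotein, was at 77.5 ± 1.71 FPKM (SD, n = 3) in the controls and 74.2 ± 0.937 in the knockdown in PANC1 (limma adjusted p = 0.0616), was listed at 0 in all 6 MIA PaCa-2 libraries and was under 0.2 FPKM in PATU8988T.

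Of the 4 genes of pH, lactate and anion transport, 2 were tested in PANC1, and both were lower at an adjusted p below 0.05 (against 32.2% of all genes) and less than 2-fold. SLC16A3, the lactate exporter MCT4, was at 72.4 ± 2.39 FPKM (SD, n = 3) in the controls and 37.8 ± 0.0215 in the knockdown in PANC1, with a log2 fold change of -0.93 ± 0.031 (SE) and a limma adjusted p = 3.61e-09, just short of 2-fold. The MIA PaCa-2 libraries had 12.8, 28.2 and 12.9 FPKM in the controls and 20.6, 20.6 and 20.5 in the knockdown, so control replicate 2 was above the knockdown libraries and the other controls below them. The fit gave 0.30 ± 0.30 with an adjusted p = 0.458 (limma), and 0.68 ± 0.033 with an adjusted p = 4.03e-07 without that replicate. SLCO4A1, an organic anion transporter, was at 162, 163 and 163 FPKM in the controls and 62.2, 70.4 and 65.3 in the knockdown in PATU8988T, a log2 fold change of -1.30 ± 0.046. It had -0.39 ± 0.065 in PANC1 (limma adjusted p = 3.96e-04) and 0.32 ± 0.15 in MIA PaCa-2 (adjusted p = 0.141). The carbonic anhydrase genes CA9 and CA12, of which CA9 is a common marker of hypoxic tissue, were below 1 FPKM in all 18 libraries.

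Mitochondrial genes of the set included the mitophagy receptors and the brake on pyruvate entry. PDK1, the kinase that blocks pyruvate dehydrogenase, was at 7.004, 6.28 and 7.23 FPKM in the controls and 3.51, 3.61 and 3.31 in the knockdown in PANC1, with a log2 fold change of -0.95 ± 0.075 (SE) and a limma adjusted p = 1.52e-06. Its level in MIA PaCa-2 was 1.54, 0.917 and 1.5001 FPKM in the controls and 3.89, 4.14 and 3.99 in the knockdown, with a log2 fold change of 1.57 ± 0.20 (SE) and a limma adjusted p = 0.00161. The groups were apart in both lines, in opposite directions, and the difference between the lines was -2.52 ± 0.22 (limma interaction, adjusted p = 1.39e-05). PATU8988T had 4.15, 4.07 and 4.46 FPKM in the controls and 2.79, 2.48 and 2.73 in the knockdown, a log2 fold change of -0.65 ± 0.076.

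BNIP3L, a receptor that tags mitochondria for removal, was at 22.7, 14.3 and 23.1 FPKM in the controls and 58.6, 62.7 and 61.3 in the knockdown in MIA PaCa-2, with a log2 fold change of 1.63 ± 0.19 (SE) and a limma adjusted p = 0.00111. In PANC1 it had a small fall of -0.21 ± 0.043 (limma adjusted p = 0.00172). Its relative BNIP3 was listed at 0 in all MIA PaCa-2 libraries, and was at 37.8 ± 1.04 FPKM (SD, n = 3) in the controls and 30.9 ± 2.31 in the knockdown in PANC1 (-0.29 ± 0.051, limma adjusted p = 4.99e-04) and 112 ± 2.54 FPKM (SD, n = 3) in the controls and 71.9 ± 2.69 in the knockdown in PATU8988T. FAM162A, a mitochondrial protein linked to cell death in hypoxia, was at 20.1, 21.02 and 21.1 FPKM in the controls and 45.1, 44.9 and 44.8 in the knockdown in MIA PaCa-2, with a log2 fold change of 1.11 ± 0.067 (SE) and a limma adjusted p = 1.75e-04, and was not called in PANC1 (0.093 ± 0.039, adjusted p = 0.0537). AK4, a mitochondrial adenylate kinase, had 0.49 ± 0.086 in MIA PaCa-2 (limma adjusted p = 0.00537) and -0.056 ± 0.065 in PANC1 (adjusted p = 0.454). All 5 genes of this role were below 0 in PATU8988T, with a median of -0.43.

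The genes of stress and growth restraint held the largest fall in PATU8988T. DEPP1, a FOXO target linked to autophagy, was there at 16.9, 15.8 and 16.7 FPKM in the controls and 2.27, 2.92 and 2.86 in the knockdown, a log2 fold change of -2.58 ± 0.090 or 5.98-fold. In PANC1 it was at 14.1, 13.8 and 14.6 FPKM in the controls and 9.15, 9.86 and 9.71 in the knockdown, with a log2 fold change of -0.56 ± 0.049 (SE) and a limma adjusted p = 3.47e-06. In MIA PaCa-2 it was at 11.2, 17.1 and 11.9 FPKM in the controls and 29.2, 30.01 and 27.3 in the knockdown, with a log2 fold change of 1.13 ± 0.17 (SE) and a limma adjusted p = 0.002795. DEPP1 was thus lower in 2 lines and higher in the other, with no overlap between groups. Of its exonic bases, 23.3% overlap with RASSF4 on the opposite strand in GENCODE v29, and RASSF4 had log2 fold changes of -0.34, 0.69 and -0.99 in PANC1, MIA PaCa-2 and then PATU8988T, each of the sign of DEPP1.

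DDIT4, an inhibitor of mTORC1 also called REDD1, was at 186, 182 and 181 FPKM in the controls and 153, 155 and 147 in the knockdown in PANC1, with a log2 fold change of -0.27 ± 0.025 (SE) and a limma adjusted p = 5.05e-06. The MIA PaCa-2 libraries had 91.4, 159.8 and 89.5 FPKM in the controls and 202, 196 and 198 in the knockdown, where control replicate 2 was far above the other controls, with a log2 fold change of 0.86 ± 0.22 (SE) and a limma adjusted p = 0.0208. The PATU8988T libraries had 283, 278 and 296 FPKM in the controls and 129.8, 148 and 143 in the knockdown, a log2 fold change of -1.03 ± 0.050. An antisense gene, DDIT4-AS1, overlaps with 41.2% of its exonic bases. NDRG1, a suppressor of metastasis in several tumours, was higher in both tested lines. Its level in MIA PaCa-2 was 0.996, 1.28 and 0.952 FPKM in the controls and 3.54, 3.26 and 3.47 in the knockdown, with a log2 fold change of 1.59 ± 0.14 (SE) and a limma adjusted p = 4.79e-04, and in PANC1 it had 0.54 ± 0.041 (adjusted p = 1.38e-06). In PATU8988T it was at 327, 341 and 343 FPKM in the controls and 198, 211 and 203 in the knockdown, a log2 fold change of -0.72 ± 0.037.

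Of the lipid handling genes, HILPDA, an inhibitor of triglyceride breakdown in lipid droplets, was at 23.5, 22.9 and 24.7 FPKM in the controls and 9.69, 8.64 and 9.602 in the knockdown in PATU8988T, a log2 fold change of -1.34 ± 0.056. It was higher at less than 2-fold in PANC1 (0.38 ± 0.046, limma adjusted p = 3.48e-05) and in MIA PaCa-2 (0.91 ± 0.12, adjusted p = 0.00202). The lipoprotein receptor gene VLDLR was under 1 FPKM on average in PANC1 and MIA PaCa-2, and was at 4.91 ± 0.11004 FPKM (SD, n = 3) in the controls and 3.41 ± 0.0878 in the knockdown in PATU8988T.

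Collagen and secretory pathway enzymes were lower in PANC1 with LOX as the exception. Of 6 tested, 1 passed the threshold as lower (ERO1A, against 4.84% of all genes) and 5 at an adjusted p alone (against 32.2%). ERO1A, the oxidase that drives disulphide bonding in the endoplasmic reticulum, was at 39.9, 42.6 and 44.4 FPKM in the controls and 20.03, 20.1 and 19.7 in the knockdown in PANC1, with a log2 fold change of -1.08 ± 0.042 (SE) and a limma adjusted p = 9.94e-09. In MIA PaCa-2 it was at 30.9, 20.3 and 31.6 FPKM in the controls and 34.97, 35.3 and 35.2 in the knockdown, with control replicate 2 below the other controls and a log2 fold change of 0.38 ± 0.17 (SE) and a limma adjusted p = 0.124. PATU8988T had 78.004, 78.7 and 72.2 FPKM in the controls and 43.9, 38.9 and 43.3 in the knockdown, a log2 fold change of -0.86 ± 0.054.

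LOX, which cross-links collagen and elastin, was at 1.12, 0.929 and 1.004 FPKM in the controls and 2.05, 2.29 and 2.22 in the knockdown in PANC1, with a log2 fold change of 1.04 ± 0.12 (SE) and a limma adjusted p = 2.42e-05. This call is close to the limits, since LOX was near 1 FPKM and its log2 fold change was 0.66 with a pseudocount of 1. In MIA PaCa-2 LOX was under the minimum, at 0.05304, 0.0711 and 0.05798 FPKM in the controls and 0.734, 0.7302 and 0.951 in the knockdown, and in PATU8988T it was at 5.49, 6.11 and 5.63 FPKM in the controls and 2.64, 2.58 and 2.99 in the knockdown, a log2 fold change of -1.05 ± 0.078. Its relative LOXL2 had -0.89 ± 0.043 in PANC1 (limma adjusted p = 4.57e-08), the opposite direction to LOX.

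The prolyl 4-hydroxylase genes, which modify collagen chains, moved together. P4HA1 had -0.51 ± 0.039 in PANC1 and 0.66 ± 0.15 in MIA PaCa-2 (limma adjusted p = 1.18e-06 and 0.0145). P4HA2 had -0.59 ± 0.063 and 0.46 ± 0.13 (limma adjusted p = 1.47e-05 and 0.0332), and in PATU8988T it was at 15.9, 15.2 and 16.4 FPKM in the controls and 8.08, 7.38 and 7.96 in the knockdown. PLOD2, a lysyl hydroxylase, was at 232 ± 6.87 FPKM (SD, n = 3) in the controls and 177 ± 6.31 in the knockdown in PANC1 (-0.39 ± 0.031, limma adjusted p = 1.65e-06) and was listed at 0 in MIA PaCa-2.

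Glucose uptake and glycolysis formed the largest group, with 17 genes, all tested in every line. In PANC1, 16 of the 17 were lower at an adjusted p below 0.05, where 32.2% of all genes were, 3 of them (ALDOC, ENO2 and PFKL) past 2-fold, and HK2 was higher. In MIA PaCa-2, 9 were higher at an adjusted p below 0.05, where 18.7% of all genes were, 3 of them (ALDOC, PFKFB4 and HK2) past 2-fold, and 0 were lower. In PATU8988T all 17 were below 0, with a median log2 fold change of -0.43. The median was -0.48 in PANC1 and 0.31 in MIA PaCa-2.

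**Figure D5:**
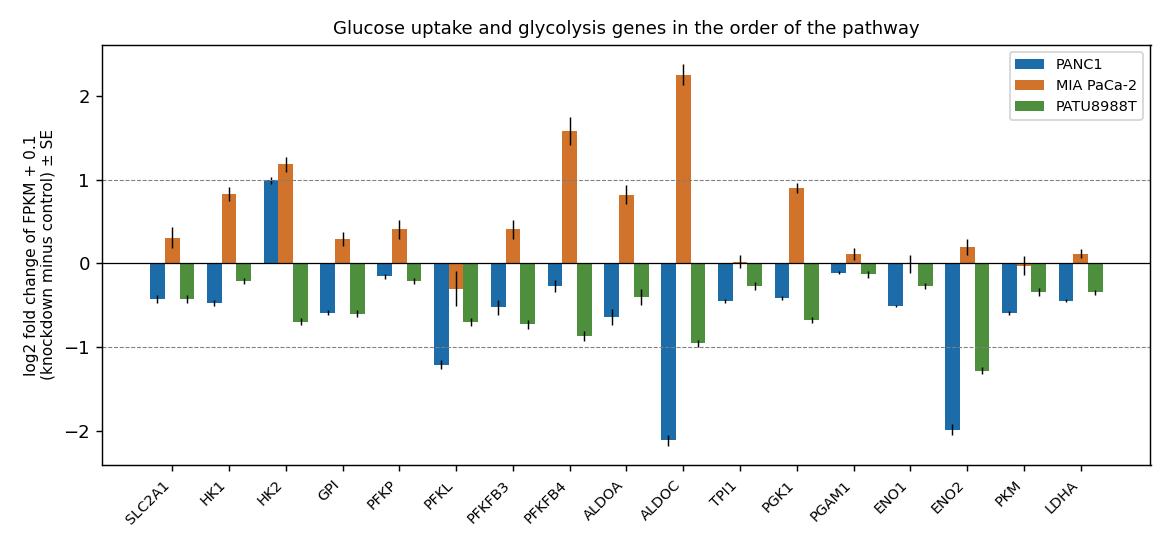
Log2 fold change (knockdown minus control, of FPKM + 0.1) of the 17 glucose uptake and glycolysis genes in pathway order, in PANC1 (blue), MIA PaCa-2 (orange) and PATU8988T (green). Bars are limma estimates from 3 against 3 libraries with their SE, and dashed lines mark 2-fold. All green bars and all blue bars other than HK2 point down, and the orange bars are close to 0 at TPI1, ENO1 and PKM.

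SLC2A1, the glucose transporter GLUT1, had -0.43 ± 0.046 in PANC1 (limma adjusted p = 1.65e-05) and 0.31 ± 0.12 in MIA PaCa-2 (adjusted p = 0.0914). HK1 and HK2 encode hexokinases, which trap glucose in the cell, and they parted ways in PANC1. HK1 was at 27.1, 26.9 and 27.05 FPKM in the controls and 19.1, 19.5 and 19.5 in the knockdown, with a log2 fold change of -0.48 ± 0.034 (SE) and a limma adjusted p = 7.04e-07. HK2 was at 8.48, 8.62 and 8.297 FPKM in the controls and 16.7, 16.97 and 16.996 in the knockdown, with a log2 fold change of 0.99 ± 0.043 (SE) and a limma adjusted p = 1.96e-08, a 1.98-fold rise just under the limit. In MIA PaCa-2 HK2 was at 15.6, 18.4 and 16.9 FPKM in the controls and 37.5, 38.4 and 39.7 in the knockdown, with a log2 fold change of 1.18 ± 0.087 (SE) and a limma adjusted p = 2.76e-04, and HK1 had 0.83 ± 0.083 (adjusted p = 7.16e-04). The HK2 change was -0.19 ± 0.093 (limma interaction, adjusted p = 0.134) in PANC1 relative to MIA PaCa-2, and -0.25 ± 0.058 (adjusted p = 0.00198) without control replicate 2 of MIA PaCa-2. In PATU8988T HK2 was at 26.96, 28.1 and 29.1 FPKM in the controls and 17.4, 17.5 and 16.9 in the knockdown, a log2 fold change of -0.70 ± 0.043.

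Among the phosphofructokinase genes, which set the committed step, PFKL was at 23.3, 22.1 and 23.6 FPKM in the controls and 9.83, 9.42 and 10.4 in the knockdown in PANC1, with a log2 fold change of -1.21 ± 0.050 (SE) and a limma adjusted p = 1.33e-08. PFKP had a smaller fall there, -0.16 ± 0.025 (adjusted p = 2.73e-04). In MIA PaCa-2 PFKL was at 48.1, 82.8 and 48.2 FPKM in the controls and 47.1, 46.1 and 46.8 in the knockdown, where control replicate 2 alone was above the knockdown libraries by a wide margin, with a log2 fold change of -0.31 ± 0.21 (SE) and a limma adjusted p = 0.283. Without that replicate the PFKL change was -0.045 ± 0.025 (limma adjusted p = 0.136). PFKL was the only gene of the 42 not called at an adjusted p below 0.05 in that setting, for which the share of all genes called is not given.

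PFKFB3 and PFKFB4 make and remove fructose 2,6-bisphosphate, the activator of phosphofructokinase. PFKFB4 was at 2.78, 4.21 and 2.87 FPKM in the controls and 9.803, 9.84 and 9.99 in the knockdown in MIA PaCa-2, with a log2 fold change of 1.58 ± 0.17 (SE) and a limma adjusted p = 8.21e-04. In PANC1 it had -0.27 ± 0.074 (limma adjusted p = 0.007501), and the difference between the lines was -1.85 ± 0.19 (limma interaction, adjusted p = 3.99e-05). PFKFB3 had -0.53 ± 0.088 in PANC1 and 0.40 ± 0.11 in MIA PaCa-2 (limma adjusted p = 3.89e-04 and 0.0294). In PATU8988T the log2 fold changes were -0.73 ± 0.053 for PFKFB3 and -0.87 ± 0.056 for PFKFB4.

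ALDOA had only 444, 513 and 488 recovered reads in the PANC1 controls. In GENCODE v29, 42.3% of its exonic bases overlap with AC093512.2 on the same strand, so its values are uncertain. It had -0.64 ± 0.096 in PANC1 and 0.82 ± 0.12 in MIA PaCa-2 (limma adjusted p = 1.69e-04 and 0.0024004), the same directions as ALDOC. PGK1, the first step that returns ATP, was at 166, 169 and 170.1 FPKM in the controls and 128, 125 and 126 in the knockdown in PANC1 and at 161, 178 and 160.1 FPKM in the controls and 311, 309 and 307 in the knockdown in MIA PaCa-2. Its log2 fold changes were -0.41 ± 0.022 and 0.90 ± 0.063 (limma adjusted p = 7.75e-08 and 2.28e-04), both under 2-fold, with a difference between the lines of -1.31 ± 0.062 (limma interaction, adjusted p = 2.02e-07).

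ENO2, the enolase of neurons, was at 22.9, 20.8 and 23.2 FPKM in the controls and 5.96, 5.23 and 5.45 in the knockdown in PANC1, with a log2 fold change of -1.99 ± 0.063 (SE) and a limma adjusted p = 2.69e-09, a 3.97-fold fall. The MIA PaCa-2 libraries had 32.2, 38.2 and 31.5 FPKM in the controls and 39.9, 38.4 and 37.8 in the knockdown, with overlapping groups and a log2 fold change of 0.19 ± 0.094 (SE) and a limma adjusted p = 0.146. The PATU8988T libraries had 86.4, 85.5 and 90.9 FPKM in the controls and 35.1, 37.4 and 35.2 in the knockdown, a log2 fold change of -1.28 ± 0.042. The common form ENO1 fell less in PANC1, where it was at 857 ± 1.78 FPKM (SD, n = 3) in the controls and 602 ± 3.27 in the knockdown, which is -0.51 ± 0.015 on the log2 scale (limma adjusted p = 1.31e-09). ALDOC and ENO2 thus had larger changes in PANC1 than their relatives ALDOA and ENO1, and this difference within pairs was not tested. ALDOC averaged 11.97 FPKM and ALDOA 6.27 FPKM in the PANC1 controls, and the ALDOA values are uncertain as stated above.

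TPI1, ENO1, PKM and LDHA, which had the highest FPKM of the 17 genes in the controls of each line, were each lower in PANC1, with log2 fold changes between -0.60 (PKM) and -0.45 (LDHA). In MIA PaCa-2 none of them was called, with values from -0.030 (PKM) to 0.11 (LDHA). Without control replicate 2 all 4 were called as higher there, with values from 0.069 (LDHA) to 0.12 (ENO1) and limma adjusted p of at most 0.00514. The summed FPKM of the 17 genes, which these enzymes dominate, was 3473 ± 21.9 (SD, n = 3) in the PANC1 controls and 2494 ± 24.1 in the knockdown. It was 6164 ± 80.9 and 4728 ± 146 in PATU8988T. In MIA PaCa-2 it was 3667, 4377 and 3651 in the controls and 4217, 4197 and 4247 in the knockdown, so control replicate 2 was above the knockdown libraries and the other controls were below them.

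Levels of MIA PaCa-2 and PATU8988T rest on the same gene lengths for 46 of 47 genes listed above 0 in both, MXI1 being the exception, and are given side by side as a description. Of 40 genes above the minimum in both, 33 were higher in all PATU8988T controls than in all MIA PaCa-2 controls and 4 (SLC16A3, AK4, PFKL and TPI1) were lower. NDRG1 was at 1.08 FPKM in the MIA PaCa-2 controls and 337 FPKM in the PATU8988T controls, and BHLHE40 at 7.46 and 126. The median log2 difference, PATU8988T minus MIA PaCa-2, was 1.24 in the controls and 0.064 in the knockdown, where the median over 9647 genes was -0.057 and 0.036. The genes were chosen partly by their fall in PATU8988T, which rests on its controls and its knockdown libraries alike, so the choice enters both medians and the count of 33, and nothing further is read from them.

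Of the genes that form and control HIF, HIF1A was at 207, 203 and 207 FPKM in the controls and 224, 223 and 228 in the knockdown in PANC1, with a log2 fold change of 0.13 ± 0.020 (SE) and a limma adjusted p = 2.17e-04. Its level in MIA PaCa-2 was 86.4, 51.1 and 85.2 FPKM in the controls and 108, 110.2 and 113 in the knockdown, with a log2 fold change of 0.61 ± 0.20 (SE) and a limma adjusted p = 0.04901. HIF1A messenger RNA was therefore higher in PANC1, where most of the set was lower, by 1.09-fold. EPAS1, which encodes HIF-2alpha, had 0.79 ± 0.028 in PANC1 (adjusted p = 5.48e-09) and 1.02 ± 0.12 in MIA PaCa-2 (adjusted p = 0.00142), where it was at 1.196 ± 0.0674 FPKM (SD, n = 3) in the controls and 2.53 ± 0.253 in the knockdown. ARNT had 0.45 ± 0.045 and 0.81 ± 0.090, VHL 0.18 ± 0.041 and 0.40 ± 0.11, and HIF1AN, the asparaginyl hydroxylase that blocks HIF activity, 0.77 ± 0.044 and 0.41 ± 0.091 in PANC1 and MIA PaCa-2, each at a limma adjusted p of at most 0.0248. EGLN2 had 0.15 ± 0.040 in PANC1 (limma adjusted p = 0.00591) and was under 0.1 FPKM in MIA PaCa-2 and PATU8988T. Gene lengths behind the PANC1 values differ, so these low levels are not compared with PANC1. In PATU8988T, HIF1A had 0.075 ± 0.055, EPAS1 -0.54 ± 0.093, ARNT 0.037 ± 0.042, VHL 0.13 ± 0.041 and HIF1AN 0.14 ± 0.056. Of 16 genes in this list, 0 of 14 tested passed the threshold in PANC1, where 4.84% of all genes were lower and 1.75% higher, and 1 of 13 (EPAS1, higher) in MIA PaCa-2, where 4.07% were. At an adjusted p alone, 2 of the 14 were lower and 8 higher in PANC1, against 32.2% and 40.1% of all genes. In MIA PaCa-2, 4 of the 13 were lower and 5 higher, against 21.7% and 18.7%, so the list did not rise as a whole.

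Further hypoxia-induced genes outside the set were counted from a list of 35. In PANC1, 29 were tested, and those past the threshold included EFNA3 as lower (-1.17 ± 0.14, limma adjusted p = 3.06e-05) and IGFBP3 as higher (2.13 ± 0.084, adjusted p = 1.04e-08), with 15 lower and 8 higher at an adjusted p alone (against 32.2% and 40.1% of all genes). In MIA PaCa-2, 8 of 27 passed as higher (against 4.07% of all genes), the largest being SPAG4 (2.18 ± 0.19), RAB20 (1.73 ± 0.32) and CCNG2 (1.56 ± 0.18), with limma adjusted p = 4.21e-04, 0.00655 and 0.00126, and 0 as lower. RAB20 passed the minimum of 1 FPKM through its knockdown libraries alone. In PATU8988T, EFNA3 (-1.45 ± 0.11), PPP1R3C (-1.31 ± 0.089) and RIMKLA (-1.16 ± 0.0997) of 30 had a fold change below 0.5 (against 0.841% of all genes), and the median was -0.53. The medians were -0.23 in PANC1 and 0.66 in MIA PaCa-2, the same signs as for the 50 genes.

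From a list of 26 other glycolysis genes, 17 were tested in each line. In PANC1 0 passed the threshold, with 5 lower and 7 higher at an adjusted p alone, shares close to the 32.2% and 40.1% of all genes. GAPDH, the enzyme between aldolase and PGK1, was at 2260 ± 29.1 FPKM (SD, n = 3) in the controls and 1735 ± 23.3 in the knockdown in PANC1, with a log2 fold change of -0.38 ± 0.015 (SE) and a limma adjusted p = 1.24e-08. In MIA PaCa-2 it had 0.42 ± 0.081 (adjusted p = 0.00778) and in PATU8988T -0.53 ± 0.043. GAPDH was not a constant reference gene in these libraries. HKDC1 (2.40 ± 0.12), SLC2A3 (2.17 ± 0.082) and PDK3 (1.21 ± 0.13) passed as higher in MIA PaCa-2 (3 of 17, against 4.07% of all genes), with limma adjusted p = 1.56e-04, 1.26e-04 and 8.05e-04. SLC2A3, the glucose transporter GLUT3, was at 4.42 ± 0.461 FPKM (SD, n = 3) in the controls and 1.503 ± 0.228 in the knockdown in PATU8988T, a log2 fold change of -1.50 ± 0.12.

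Genes induced by ATF4, the factor of the integrated stress response, did not follow the signs of the 50 genes in PANC1 and PATU8988T. Some of the 50 genes, such as DDIT4 and VEGFA, are known to be induced by ATF4 as well. The median of the ATF4 list was 0.58 in PANC1 (13 genes), 1.29 for MIA PaCa-2 (13 genes) and 0.55 for PATU8988T (11 genes). In PANC1 4 of 13 passed as higher (against 1.75% of all genes), among them ATF3 (1.37 ± 0.084), SESN2 (1.23 ± 0.045) and CHAC1 (1.20 ± 0.049), with limma adjusted p = 2.36e-07, 6.34e-09 and 1.31e-08, and SLC7A11 passed as lower (-1.69 ± 0.072, adjusted p = 1.82e-08). In MIA PaCa-2 8 of 13 passed as higher (against 4.07%), led by NUPR1 (2.93 ± 0.19), ATF3 (2.38 ± 0.14) and SESN2 (2.15 ± 0.13), with limma adjusted p = 1.99e-04, 1.72e-04 and 1.81e-04, of which NUPR1 passed the minimum of 1 FPKM through its knockdown libraries alone. In PATU8988T, CHAC1 (2.76 ± 0.093), SESN2 (1.24 ± 0.071) and ATF3 (1.19 ± 0.058) had a fold change above 2. Whether this response had a part in the changes of the 50 genes was not tested.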

How the data were processed

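Total RNA from 18 samples of 3 pancreatic cancer lines was sequenced by the authors, with 3 control and 3 OFD1 knockdown libraries per line. Per the study's methods, the authors used HISAT2 for mapping, HTSeq-count for counting and DESeq2 for testing. The extraction and library kits named in the sample labels differ from those in the methods. The submitters' processing notes name hg38 beside mouse builds, with no role given. The deposited values are FPKM, that is read counts divided by gene length and by the total counted in the library, for 26668 gene symbols. Reads per library were recovered from the steps of the FPKM values, for 100% of the genes above 0, as minimum numbers. Intervals from them would cover counting error only.

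Within each line, genes with a mean of at least 1 FPKM were kept, and log2(FPKM + 0.1) went into lmFit and eBayes (with a variance trend) of limma 3.58.1 under R 4.3.3. Two-sided p-values were corrected by Benjamini-Hochberg over all genes of the line. The threshold was an adjusted p below 0.05 with a fold change above 2 or below 0.5. The difference between PANC1 and MIA PaCa-2 was tested with an interaction term on their 12 libraries. An exact permutation test of 3 against 3 libraries cannot give p below 0.1. The scripts were tested on simulated data. Labels do not say whether replicates came from separate cultures, so p-values measure the spread between these libraries, which may be technical.

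The 50 genes, the further gene lists and the tests were chosen with earlier results of these data known. Values in every library were given for genes past the threshold in PANC1 or MIA PaCa-2, past 2-fold in PATU8988T, or past it in opposite directions; the other genes were summarised by role, with further library values of DDIT4, HK1, PGK1, SLC16A3 and others chosen after their values were seen. Of genes outside the 50, OFD1, HIF1A, EPAS1, ARNT, VHL, EGLN2 and HIF1AN were named, with up to 3 genes per list, line and direction past the threshold, and GAPDH and the genes overlapping with a member were added after their values were seen. A further gene of these lists is not reported here. Replicate numbers are shared by the groups but do not mark pairs in the labels. Deviations of same-numbered libraries from their group means correlated at -0.0032 to 0.08 in PANC1, -0.11 to -0.038 in MIA PaCa-2 and -0.10 to 0.13 in PATU8988T. Sequences, positions and starts are from RefSeq (GRCh38.p14), and exon overlaps from GENCODE v29. Figures were drawn with matplotlib 3.10.9. Alternatives were other pseudocounts, filters, scalings and weights, a replicate block and leaving out each library, with replicate 1 of each PATU8988T group alone added after the data were seen.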

Additional observations from a re-analysis of the deposited data

Results flagged for a closer look

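Of 19 genes past the threshold in PANC1 or MIA PaCa-2, 18 were tested in both lines, and 17 of them responded differently in the lines by the limma interaction term (change in PANC1 minus change in MIA PaCa-2, log2 scale, adjusted over 9553 genes). All 17 differences were below 0. These genes were picked for passing the threshold in at least 1 of the same lines, which favours a difference between the lines. Over all 9553 genes, 14.5% had a difference below 0 and 20.9% above 0 at an adjusted p below 0.05. The share among other genes that passed in either line is not given. The widest were ALDOC at -4.37 (adjusted p = 9.37e-09), ANGPTL4 at -3.03 (adjusted p = 1.31e-05), PDK1 at -2.52 (adjusted p = 1.39e-05), ANKRD37 at -2.50 (adjusted p = 5.45e-05) and ENO2 at -2.18 (adjusted p = 4.44e-07). Next were PFKFB4 at -1.855 (adjusted p = 3.99e-05), BNIP3L at -1.84 (adjusted p = 6.37e-05), ADM at -1.81 (adjusted p = 2.53e-04), DEPP1 at -1.69 (adjusted p = 5.38e-05), BHLHE40 at -1.59 (adjusted p = 5.58e-07) and MXI1 at -1.47 (adjusted p = 6.94e-04), again by the limma interaction. The others were ERO1A at -1.46 (adjusted p = 1.79e-04), NDRG1 at -1.05 (adjusted p = 2.14e-04), FAM162A at -1.02 (adjusted p = 3.09e-06), VEGFA at -0.92 (adjusted p = 1.22e-05), PFKL at -0.91 (adjusted p = 0.0108) and CITED2 at -0.63 (adjusted p = 5.89e-05) by the same test. HK2 was the gene whose difference was not past the threshold, at -0.19 (limma adjusted p = 0.134), though it was at -0.25 (adjusted p = 0.00198) without control replicate 2 of MIA PaCa-2. OFD1 itself had log2 fold changes of -0.61 in MIA PaCa-2 and -1.07 in PANC1, and the part of this in the differences was not tested. With 3 libraries per group, no group was large enough to test a single library as standing apart.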

How the results depend on the processing

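The medians, OFD1 and the genes past the threshold kept their direction under the alternatives tried. Values near 0 in MIA PaCa-2 did not: with the same 42 genes, 1 to 5 were below 0 in place of 3, and without control replicate 2 ENO1 went from -0.0094 to 0.12 and PKM from -0.030 to 0.11. Counts of genes past the threshold stayed within 1.5 times except for the 1 gene higher in PANC1 (LOX), which became 0 with a pseudocount of 1 or a minimum of 5 FPKM, and the counts at an adjusted p alone, which were 30 lower and 9 higher in PANC1 and 28 higher in MIA PaCa-2. LOX in PANC1 was also under 2-fold without control replicate 2, at 0.98. The PANC1 median was -0.31 with a pseudocount of 1, -0.40 with a minimum of 5 FPKM, -0.32 after quantile normalisation and between -0.39 and -0.33 with each library left out. The MIA PaCa-2 median was 0.78 with array weights and between 0.63 and 0.79 with each library left out, the highest being without control replicate 2. OFD1 in MIA PaCa-2 kept its value of -0.61 with no filter on low values but had a limma adjusted p = 0.0504, and it ranged from -0.76 to -0.52 with each library left out, where the adjusted p went up to 0.0899; the causes of these shifts were not tested. In PATU8988T the median was -0.43 with a pseudocount of 1, -0.55 with no filter, -0.43 with a minimum of 5 FPKM, -0.48 after quantile normalisation and -0.55 from replicate 1 of each group alone. The 15 genes higher in MIA PaCa-2 kept their calls in all 223 refits made of them singly, and 87 of 89 such refits kept the 6 calls in PANC1.

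With the replicate block, 5 genes were lower and 1 higher in PANC1 and 15 higher in MIA PaCa-2, and the difference between these lines was called for 38 genes in place of 40, so it changed no count by over 1.5 times. The limits are 3 libraries per group, a control library of MIA PaCa-2 that stands apart, controls on which labels and methods differ, and FPKM in place of counts, which carries no depth weighting for genes near 1 FPKM.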
